A study of Mus musculus with 24 samples.

Results

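The genes described are 9 that mark classical monocytes or encode proteins of myeloid granules and secretions, namely Ly6c2, Plac8, Fpr1, Fpr2, Hp, Slpi, Lyz2, S100a8 and S100a9. They were taken by symbol from a count table of 47643 genes, and all 9 were found. The 24 libraries came from mouse macrophages of 2 sources, induced pluripotent stem cells, here called iPSC-derived, and bone marrow, here called bone marrow-derived. Each source was sampled on day 0 without co-culture and on days 3, 6 and 12 of co-culture, with 3 replicates labelled independent in each of the 8 groups. Day 0 cells of the same batch served as controls. The labels name neither the cells of the co-culture nor a strain, an age, a sex or an iPSC line. No group after day 0 lacked co-culture, so co-culture and days in culture cannot be told apart.

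Classical monocytes leave the bone marrow with LY6C on their surface and lose it as they become macrophages in tissue. Formyl peptide receptors steer such cells toward bacterial and mitochondrial peptides. Haptoglobin, SLPI, lysozyme and the S100A8/S100A9 pair (calprotectin) are secreted or granule proteins found in neutrophils or monocytes, though not only there. Lysozyme is also a standing product of macrophages.

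The windows before the RefSeq start sites are shown for 4 of the genes that were highest on bone marrow-derived day 3. Hp, Plac8 and S100a8 were also highest then and are not shown. Hp had no window, and the windows of Plac8 and S100a8 run into the counted gene. The windows shown are RefSeq sequences of build GRCm38.p6, written 5′ to 3′ on the gene's strand. Each is 250 bases long except that of Fpr1, which has 249 because 1 base lies in the counted exon. The Slpi window lies within the span of the counted gene. Capitals mark matches to TTNNGNAA, a C/EBP motif, on either strand.
Ly6c2, chr15:75111972-75112221, minus strand: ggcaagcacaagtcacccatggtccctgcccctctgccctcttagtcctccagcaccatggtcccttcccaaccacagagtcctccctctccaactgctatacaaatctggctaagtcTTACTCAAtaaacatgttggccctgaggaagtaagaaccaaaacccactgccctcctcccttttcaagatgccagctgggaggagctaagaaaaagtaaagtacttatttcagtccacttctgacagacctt
Fpr1, chr17:17883941-17884189, minus strand: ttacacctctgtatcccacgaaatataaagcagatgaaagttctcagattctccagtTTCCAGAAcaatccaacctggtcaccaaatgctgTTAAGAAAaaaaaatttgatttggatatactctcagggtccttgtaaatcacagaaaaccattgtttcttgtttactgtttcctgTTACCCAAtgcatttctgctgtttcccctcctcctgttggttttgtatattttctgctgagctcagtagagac
Fpr2, chr17:17887574-17887823, plus strand: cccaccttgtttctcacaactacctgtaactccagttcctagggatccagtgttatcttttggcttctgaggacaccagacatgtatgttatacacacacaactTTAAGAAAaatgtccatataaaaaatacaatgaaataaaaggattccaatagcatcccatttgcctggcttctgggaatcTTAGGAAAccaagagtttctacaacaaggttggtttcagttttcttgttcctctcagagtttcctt
Slpi, chr2:164356508-164356757, minus strand: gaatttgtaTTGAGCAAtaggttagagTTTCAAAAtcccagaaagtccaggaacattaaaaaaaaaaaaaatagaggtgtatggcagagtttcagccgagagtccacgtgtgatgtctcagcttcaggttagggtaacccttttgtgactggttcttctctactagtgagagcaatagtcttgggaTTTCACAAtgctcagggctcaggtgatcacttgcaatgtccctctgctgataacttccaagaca
Of the 9 genes, 8 had a window, and all 8 held a C/EBP match, as did 36.8% of 32851 windows of the same length. The PU.1 motif GAGGAA was found in Fpr2, Ly6c2, Plac8 and S100a8, and in 23.3% of all windows. The STAT motif TTCNNNGAA was found in Fpr2 and in 7.02% of windows. The AP-1 motif TGANTCA (6.75% of windows) and motifs for NF-kB (0.356%) and IRF (2.98%) were in none of the 8. Both strands were searched. The 6 motifs, and the one shown in capitals, were chosen after expression values had been seen, and a match describes letters only.

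Library totals were 5839316 to 11805478 counts. Levels are given as CPM, counts relative to the library's total after TMM scaling. Macrophage markers summed to between 5073 and 13923 CPM over all libraries, with all 9 marker genes counted in every group. Among 10 neutrophil markers, Mpo was at 0 in all 8 groups and Elane at 0 in 6, while the sum (38.3 to 230 CPM) was mostly Csf3r, which averaged 44.6 to 195 CPM by group. In iPSC-derived day 0 replicate 3, several of the 9 genes lay away from the other 2 replicates: Lyz2 was higher, and Hp, Slpi, Plac8 and Fpr1 were lower. Fibroblast markers summed to 24.7 CPM there and to 3.39 and 3.72 CPM in the other 2. Each call that changed without that library is given with its value. In bulk RNA, a change in the share of a cell type and a change in RNA per cell cannot be told apart.

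**Figure D1:**
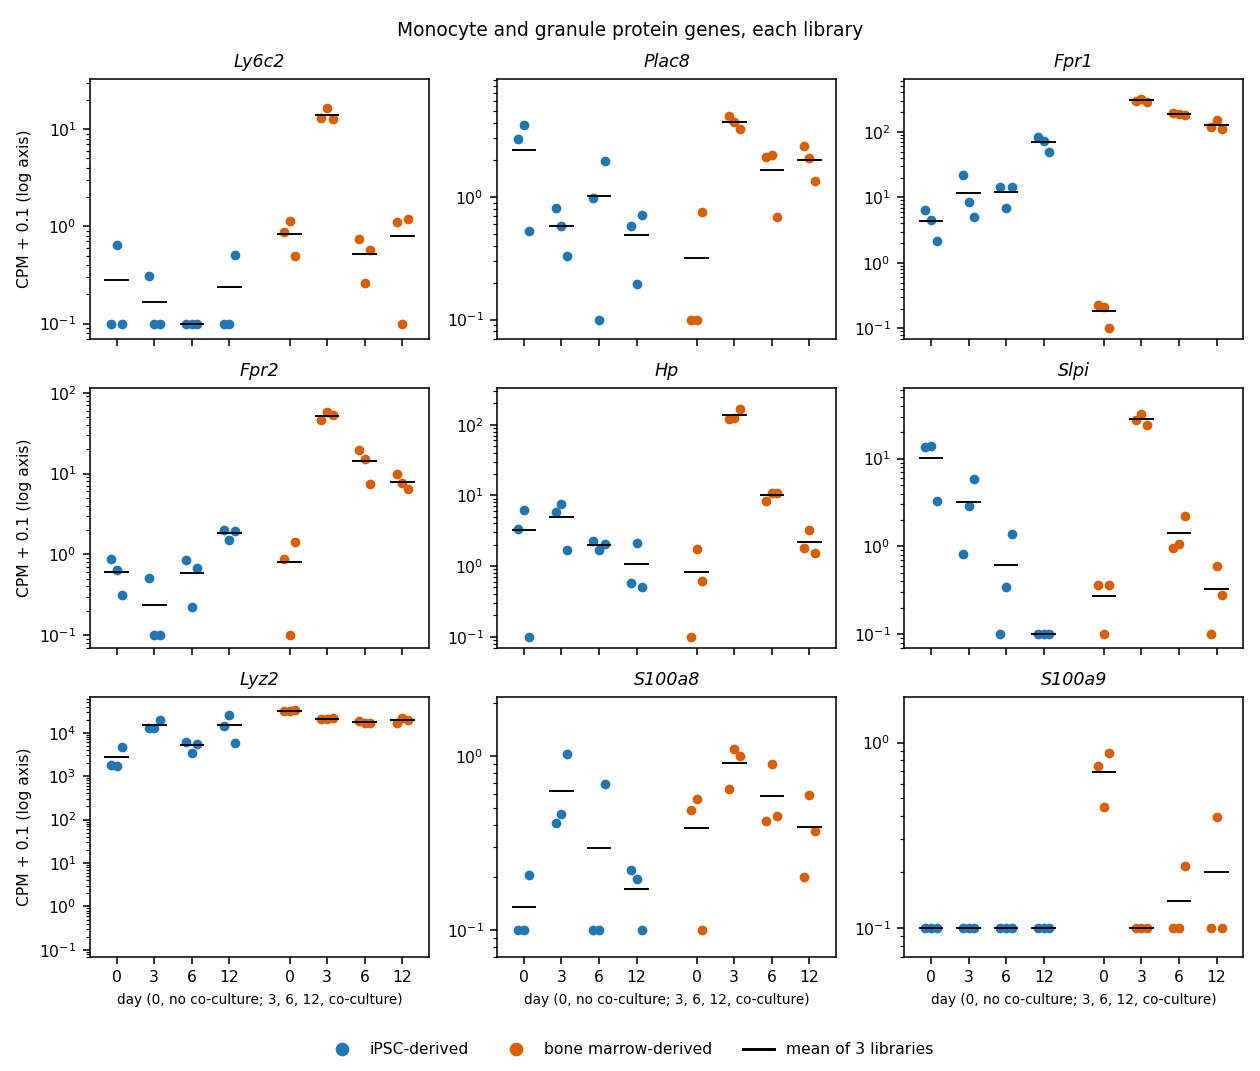
Each panel plots 1 gene as CPM plus 0.1 on a log axis by day, with 1 point per library and a bar at the mean of 3 libraries. Ly6c2, Fpr1, Fpr2, Hp, Slpi and Plac8 were highest in the bone marrow-derived day 3 libraries, and S100a9 was at 0 in all 12 iPSC-derived libraries.

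Ly6c2 encodes the GPI-anchored antigen that defines classical monocytes (chr15:75108158-75111970 in GRCm38, as are all gene positions given; minus strand, 4 exons). In bone marrow-derived cells its level was 0.773, 1.04 and 0.391 CPM on day 0, 12.8, 16.3 and 12.7 on day 3, 0.639, 0.160 and 0.468 on day 6, and 1.00, 0 and 1.08 on day 12. The day 3 libraries lay above every other library. In iPSC-derived cells the gene had 0 to 5 counts per library, and all 3 day 6 libraries were at 0. The rise from day 0 to day 3 in bone marrow-derived cells was 4.21 ± 1.15 (log2, SE, n = 3 per group; edgeR adjusted p = 0.012), and the fall from day 3 to day 12 was -4.30 ± 1.15 (adjusted p = 0.019). Without bone marrow-derived day 0 replicate 3 the rise was 3.93 and no longer passed (adjusted p = 0.055). The fall lost its call whichever of the 6 libraries was left out, at -4.76 to -3.73 with adjusted p from 0.051 to 0.081. Of the 51-base words of Ly6c2, 13.6% also occur in Ly6c1, and Ly6c1 itself had 0 to 2 counts per group.

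Plac8, a small cysteine-rich protein of monocytes and granulocytes (chr5:100553725-100572245, minus strand), also peaked on day 3. Its bone marrow-derived values were 0, 0 and 0.651 CPM on day 0, 4.48, 3.96 and 3.46 on day 3, 2.02, 2.08 and 0.585 on day 6, and 2.51, 1.98 and 1.26 on day 12. Day 3 did not overlap any other bone marrow-derived day. The day 3 rise of 4.14 ± 1.24 (adjusted p = 0.020) rested on 5 counts in 1 day 0 library; without day 0 replicate 1 it was 3.61 and without replicate 2 it was 3.58, and neither passed (adjusted p up to 0.082), while without replicate 3 it was 8.18. Differences of 2.79 ± 1.22 on day 6 and 3.09 ± 1.21 on day 12 did not pass (adjusted p = 0.11 and 0.067), but without day 0 replicate 3, the library with the 5 counts, they were 6.85 and 7.12 and did. The iPSC-derived values were 2.85, 3.72 and 0.429 CPM on day 0 and 0 to 1.86 CPM afterwards, and no change from day 0 passed the test.

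Fpr1, the high-affinity formyl peptide receptor (chr17:17876471-17883940, minus strand), was almost silent in bone marrow-derived cells before co-culture. Bone marrow-derived day 0 libraries had 1, 1 and 0 counts. Levels were then 300, 321 and 290 CPM on day 3, 196, 189 and 180 on day 6, and 119, 152 and 110 on day 12, so no day overlapped another. From counts, day 3 was 3661 times day 0 (exact 95% interval 1013 to 30231, counting error only; edgeR adjusted p = 3.9e-10), day 6 was 2270 times (628 to 18746) and day 12 was 1520 times (421 to 12558). From day 3 to day 12 it fell by 1.26 ± 0.36 on the log2 scale (adjusted p = 0.034). That call was lost whichever of the 6 libraries was left out, at -1.41 to -1.17 with adjusted p from 0.061 to 0.13.

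In iPSC-derived cells Fpr1 was present from the start, at 6.35, 4.38 and 2.04 CPM on day 0, 21.9, 8.30 and 4.94 on day 3, 14.5, 6.70 and 14.4 on day 6, and 83.4, 73.4 and 49.3 on day 12. Every day 12 library lay above all earlier ones. Day 12 exceeded day 0 by 4.01 ± 0.44 (adjusted p = 8e-07) and day 3 by 2.54 ± 0.40 (adjusted p = 3e-04; 3.38 without day 3 replicate 1). The smaller rises to day 3 (1.47 ± 0.43, adjusted p = 0.019) and day 6 (1.48 ± 0.43, adjusted p = 0.015) each turned on single libraries. The day 3 rise was 0.66 without day 3 replicate 1, 1.49 without day 0 replicate 2 and 1.13 without day 0 replicate 3. The day 6 rise was 1.15 without day 0 replicate 3, 1.32 without day 6 replicate 1 and 1.32 without day 6 replicate 3. None of these 6 values passed.

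Fpr2, which also binds annexin A1 and serum amyloid A (chr17:17887824-17893952, plus strand), was also highest on bone marrow-derived day 3. Bone marrow-derived values were 0.773, 0 and 1.30 CPM on day 0, 45.8, 57.3 and 52.8 on day 3, 19.6, 15.2 and 7.25 on day 6, and 9.62, 7.44 and 6.30 on day 12. Day 3 lay above all other days, and days 6 and 12 overlapped. The rise was 6.24 ± 0.68 to day 3 (adjusted p = 2.5e-07), 4.35 ± 0.66 to day 6 (adjusted p = 2.6e-05) and 3.50 ± 0.65 to day 12 (adjusted p = 0.00025). Without day 0 replicate 2 the rises to days 3 and 12 were 5.65 and 2.90, and without day 0 replicate 3 those to days 3, 6 and 12 were 7.09, 5.21 and 4.34, all still called. iPSC-derived libraries held 0 to 7 counts through day 6 and 16, 15 and 18 counts on day 12. The iPSC-derived day 12 difference from day 0, 1.73 ± 0.70, did not pass (edgeR adjusted p = 0.073). With DESeq2 (1.78) and with no filter on low counts (1.75) it did. Day 12 exceeded day 3 by 3.42 ± 0.85 (adjusted p = 0.012), which was 2.91 without day 3 replicate 2 and then missed the threshold (adjusted p = 0.058), and 6.97 without day 3 replicate 1. Fitted on the compared groups alone, that difference was 3.47 and was not called (edgeR adjusted p = 0.25). The day 3 difference from day 0, -1.69 ± 0.99, passed only without day 3 replicate 1 (-5.23, adjusted p = 0.047). Fpr2 shares 28.03% of its 51-base words with Gm5966 and 6.02% with Fpr3, so its counts are uncertain to that extent.

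Hp encodes haptoglobin, which binds free haemoglobin (chr8:109575130-109579172, minus strand). In bone marrow-derived cells it was at 0, 1.62 and 0.521 CPM on day 0, 122, 123 and 166 on day 3, 8.20, 10.9 and 10.6 on day 6, and 1.70, 3.17 and 1.44 on day 12. Days 3 and 6 each stood clear of the other days, and days 0 and 12 overlapped. The rise to day 3 was 7.51 ± 0.93 (adjusted p = 5.5e-06), that to day 6 was 3.72 ± 0.89 (adjusted p = 0.005), and the fall from day 3 to day 12 was -6.02 ± 0.83 (adjusted p = 6.6e-05). Without day 0 replicate 2 the rises were 8.99 and 5.20. iPSC-derived values ranged from 0 to 7.34 CPM with no day passing the test against day 0. Without day 0 replicate 3, which held 0 counts, the day 12 difference changed from -1.65 to -2.24 and passed. The difference between iPSC-derived days 12 and 3, -2.29 ± 0.84 (adjusted p = 0.1), passed without day 3 replicate 3 (-2.72).

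Slpi encodes an inhibitor of neutrophil elastase and cathepsin G (chr2:164354070-164389095, minus strand). Bone marrow-derived values were 0.258, 0 and 0.261 CPM on day 0, 27.5, 32.0 and 24.2 on day 3, 0.852, 0.960 and 2.10 on day 6, and 0, 0.496 and 0.180 on day 12. iPSC-derived values were 13.4, 13.9 and 3.22 CPM on day 0, 0.718, 2.77 and 5.74 on day 3, 0, 0.248 and 1.27 on day 6, and 0 in all 3 day 12 libraries. The day 3 bone marrow-derived libraries lay above all others, while among iPSC-derived cells days 0 and 3 overlapped and days 6 and 12 lay below day 0. The bone marrow-derived change was 7.26 ± 1.08 to day 3 (adjusted p = 3e-05) and -6.87 ± 1.02 from day 3 to day 12 (adjusted p = 9.6e-05; -8.02 without day 12 replicate 2). The bone marrow-derived differences from day 0 on days 6 and 12, 2.87 ± 1.11 and 0.39 ± 1.32, did not pass (adjusted p = 0.075 and 0.87). In iPSC-derived cells the day 3 difference, -1.72 ± 0.77, did not pass either (adjusted p = 0.13). Slpi then fell by 4.20 ± 0.90 to day 6 (adjusted p = 0.0014; -6.21 without day 6 replicate 3) and was at least 97.0-fold lower on day 12 than on day 0 (adjusted p = 3.7e-05), taking a floor of 3 counts over the group. From day 3 to day 12 it was at least 28.7-fold lower (adjusted p = 0.002), so that fall was called in both sources. Fitted on the compared groups alone, the iPSC-derived fall missed the threshold (edgeR adjusted p = 0.064).

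**Figure D2:**
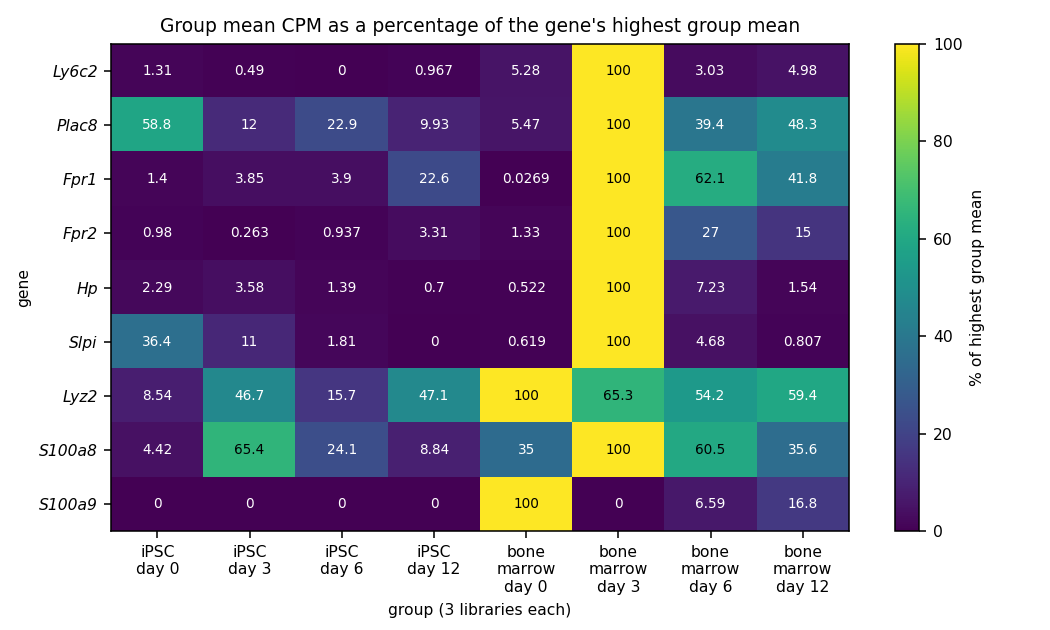
Each cell gives a group's mean CPM (3 libraries) as a percentage of the gene's highest group mean. Fpr1 kept 41.8% of its day 3 level on bone marrow-derived day 12, against 1.54% for Hp and 0.807% for Slpi.

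Lyz2, lysozyme of macrophages and granulocytes (chr10:117277334-117282274, minus strand), was among the 43 most abundant genes by counts in every library. Bone marrow-derived day 0 libraries had 32246, 31354 and 33383 CPM, above the 16960 to 21908 CPM of all co-cultured ones, yet no day passed the test against day 0 (log2 differences -0.61 ± 0.40, -0.88 ± 0.40 and -0.75 ± 0.40; edgeR adjusted p = 0.33, 0.14 and 0.19). Fitted on the compared groups alone, all 3 differences passed, at -0.61, -0.88 and -0.74. iPSC-derived values were 1764, 1711 and 4810 CPM on day 0, 13060, 13022 and 19178 on day 3, 6219, 3398 and 5630 on day 6, and 14621, 25415 and 5688 on day 12. Days 3 and 12 lay above day 0, whereas day 6 overlapped it. The rise was 2.45 ± 0.42 to day 3 (adjusted p = 3e-04) and 2.46 ± 0.42 to day 12 (adjusted p = 0.00024). Without day 0 replicate 3 these rises were 3.12 and 3.13, and the lowest values with any other library left out were 2.20 and 1.90, all called. The day 6 difference of 0.88 ± 0.40 (adjusted p = 0.12) became 1.55 and passed without day 0 replicate 3 (adjusted p = 0.0082). Lyz2 shares 14.8% of its 51-base words with Lyz1.

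S100a8 and S100a9, the calprotectin subunits (chr3:90668978-90670035, plus strand, and chr3:90692632-90695721, minus strand), were at or near background. S100a8 had 0 to 10 counts per library, highest on bone marrow-derived day 3 with 5, 10 and 8. S100a9 had 5, 3 and 6 counts on bone marrow-derived day 0, 0 in all day 3 libraries, and 0 in all 12 iPSC-derived libraries. Neither passed the filter on low counts. In the fit without that filter neither was called in any of 15 comparisons, the lowest adjusted p being 0.12 for S100a9 between the sources on day 0 (unadjusted p = 0.029). Changes in these genes were not detectable at this depth.

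In bone marrow-derived cells, 6 of the 7 tested genes rose by day 3 (Ly6c2, Plac8, Fpr1, Fpr2, Hp and Slpi) and 0 fell, where 11.9% of 15000 genes were higher and 6.61% lower. Ly6c2 entered the tests only through its bone marrow-derived day 3 libraries, where it was high, so its calls with that group are not independent of the filter. The untested S100a8 and S100a9 are not in these counts. By day 6, 3 were higher (Fpr1, Fpr2 and Hp) and 0 lower, against 12.7% and 6.89% of all genes. By day 12, 2 were higher (Fpr1 and Fpr2) and 0 lower, against 14.7% and 9.08%. From day 3 to day 12, 5 fell and 0 rose, against 4.25% and 4.2%. In iPSC-derived cells, 2 rose by day 3 (Lyz2 and Fpr1) and 0 fell, against 11.2% and 8.14%. By iPSC-derived day 6, Fpr1 rose and Slpi fell, against 14.3% higher and 11% lower. By day 12, Fpr1 and Lyz2 rose and Slpi fell, against 14% and 10.7%. From iPSC-derived day 3 to day 12, Fpr1 and Fpr2 rose and Slpi fell, against 4.07% and 4.82%. Against day 0, 3 or fewer of the 7 genes were called on every day in either source except bone marrow-derived day 3. Comparisons with day 0 within a source share the same day 0 libraries.

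Before co-culture, Lyz2 was lower in iPSC-derived than in bone marrow-derived cells, by -3.55 ± 0.44 (adjusted p = 3.3e-06; -4.22 without iPSC-derived replicate 3). Slpi was higher by 5.81 ± 1.05 (adjusted p = 0.00014), Plac8 by 3.37 ± 1.22 (adjusted p = 0.032), and Fpr1 was 50.99 times as high by counts (exact 95% interval 13.8 to 426). Those are 3 genes higher and 1 lower of 7, where 18.9% of all genes were higher and 17.1% lower. Plac8 overlapped between the sources and lost its call without bone marrow-derived replicate 1 (2.84) or 2 (2.81), or without iPSC-derived replicate 1 (3.20) or 2 (2.86), and it was 7.41 without bone marrow-derived replicate 3. Hp, at 2.06 ± 0.93 (adjusted p = 0.091), passed without bone marrow-derived replicate 2 (3.54) or iPSC-derived replicate 3 (2.65), and Ly6c2 passed without iPSC-derived replicate 2 (-5.77).

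On day 3, 5 of 7 genes were lower in iPSC-derived cells and 0 higher (all genes 8.92% lower and 8.94% higher). The differences were -8.33 ± 0.80 for Fpr2 (adjusted p = 2.6e-08), -4.80 ± 0.77 for Hp (adjusted p = 0.00011), -4.69 ± 0.43 for Fpr1 (adjusted p = 5.5e-08) and -3.18 ± 0.80 for Slpi (adjusted p = 0.0065). Of these genes, Fpr1 and Slpi had been called higher on day 0. Without iPSC-derived day 3 replicate 1, Fpr1 was -5.51 and Fpr2 -11.88, and without replicate 3 Slpi was -3.99. The iPSC-derived day 3 libraries had 4, 0 and 0 Fpr2 counts, so the size of the Fpr2 difference is uncertain. Ly6c2 was 188 times lower by counts (exact 95% interval 51.7 to 1556, edgeR adjusted p = 0.00059), and it was tested only because of its bone marrow-derived day 3 counts. None of the 5 overlapped between the sources, but neither did the uncalled Plac8 and Lyz2, and the share of all genes without overlap was not counted. All 5 stayed called with any 1 library left out. Plac8, at -3.01 ± 1.13 (edgeR adjusted p = 0.069), passed with DESeq2, with no filter, with no scaling factors and on the compared groups alone. Lyz2, at -0.49 ± 0.40 (edgeR adjusted p = 0.47), passed only with no filter. On day 6, Fpr1, Fpr2, Hp and Lyz2 were lower (4 of 7, and 0 higher; all genes 6.23% lower and 6.99% higher), by -3.98 ± 0.42, -4.79 ± 0.68, -2.37 ± 0.78 and -1.79 ± 0.41. Hp there (adjusted p = 0.049) missed the threshold whichever of the 6 libraries was left out, at -2.49 to -2.27, and with DESeq2. On day 12, 1 of 7 was lower and 0 higher (all genes 4.74% and 5.03%): Fpr2 at -2.17 ± 0.57 (adjusted p = 0.014), which was -1.99 without bone marrow-derived replicate 1 and -2.03 without iPSC-derived replicate 2, both short of the threshold. Fpr1 did not overlap on day 12 but was not called (-0.89 ± 0.36, adjusted p = 0.14).
The change from day 0 itself differed between the sources (interaction term) for 6 of 7 genes on day 3, 5 on day 6 and 4 on day 12, where 20.5%, 19.7% and 20.1% of all genes were called. On each day Lyz2 was the 1 gene whose change was higher in iPSC-derived cells (all genes 9.03%, 8.62% and 9.07%). The change was lower there for 5, 4 and 3 genes (all genes 11.5%, 11.1% and 11%). The 3 days share the day 0 libraries. Ly6c2 was not called on day 3, at -5.38 ± 1.95 (edgeR adjusted p = 0.054), and its value rested on few counts. Without iPSC-derived day 0 replicate 2 it was -1.56 (adjusted p = 0.89), whereas it passed without iPSC-derived day 0 replicate 1 (-5.93) or 3 (-5.94) or day 3 replicate 1 (-8.05). It also passed with DESeq2 (-5.56), with no filter (-5.39), with no scaling factors (-5.63) and when fitted on the compared groups alone (-5.37). Without iPSC-derived day 0 replicate 3, Plac8 passed for day 6 (-4.61, adjusted p = 0.044) and Hp for day 12 (-3.73, adjusted p = 0.0075).

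**Figure D3:**
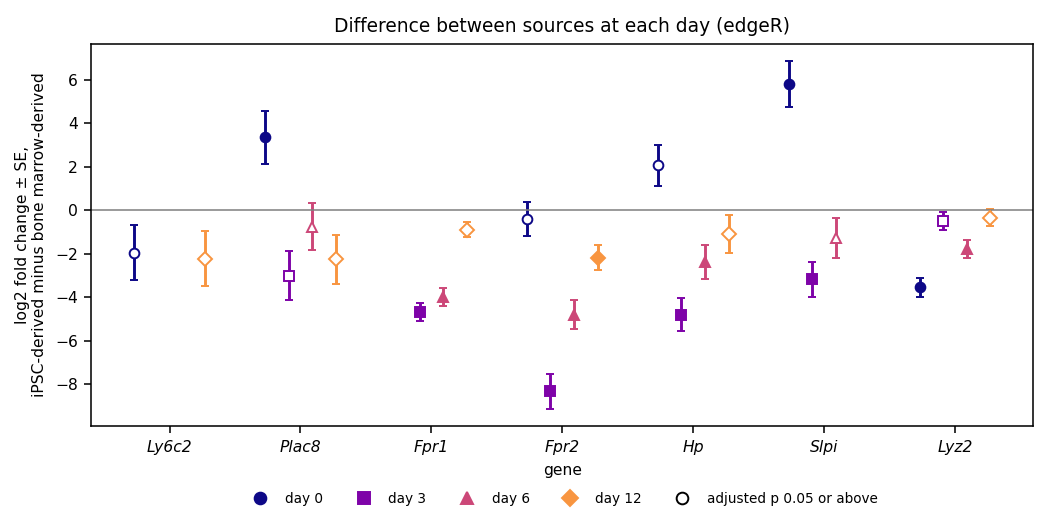
Points are log2 fold changes (iPSC-derived minus bone marrow-derived, bars SE, 3 libraries per group) by gene and day, filled where the edgeR adjusted p was below 0.05; comparisons with a group of 3 or fewer counts are left out. Slpi and Plac8 lay above 0 on day 0, and Fpr1, Fpr2, Hp and Slpi lay below 0 on day 3.

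Among 16 tested other classical monocyte genes, a list chosen with earlier results known, 11 rose and 0 fell by bone marrow-derived day 3 (all genes 11.9% and 6.61%; median 1.80 against 0.04 over all genes). Ccr2, the receptor that draws monocytes from marrow, went from 27.4 to 64.4 CPM. On iPSC-derived day 3, 5 rose and 4 fell (all genes 11.2% and 8.14%; median -0.08), and Ccr2 averaged 2.08 CPM at most in any iPSC-derived group. Among 5 tested lysozyme and LY6 relatives, 4 rose by bone marrow-derived day 3, including Ly6i, at least 228-fold higher (0 to 28.2 CPM, floor of 3 counts). Of 7 tested neutrophil genes only Lcn2, an iron-binding granule protein, rose in that comparison (0.216 to 26.1 CPM). Lcn2 was also 6.53 ± 5.97 CPM (SD, n = 3) on iPSC-derived day 0 and 0 on day 12.

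The summed monocyte markers, which include Ccr2, Chil3, F13a1 and Vcan, were 188 to 204 CPM on bone marrow-derived day 0, 688 to 849 on day 3, 625 to 805 on day 6 and 829 to 854 on day 12. In iPSC-derived cells they were 6.78 to 41.5 CPM through day 6 and 136 to 218 on day 12. Markers of other cells moved with co-culture too. Neuron markers summed to 0 to 1.39 CPM on bone marrow-derived day 0 and 43.0 to 60.4 on day 3, and to 1.72 to 2.95 and 17.5 to 41.9 CPM on the same days in iPSC-derived cells. Fibroblast markers in iPSC-derived cells went from 3.39 to 24.7 CPM on day 0 to 16.9 to 87.4 on day 3, 357 to 762 on day 6 and 265 to 477 on day 12. In bone marrow-derived cells they went from 0.261 to 14.6 CPM on day 0 to 13.8 to 28 on day 3 and 90.5 to 189 on day 12. T cell markers summed to 74.8 to 92.1 CPM on bone marrow-derived day 0 and 24.3 to 28.6 on day 3, with 2 of 5 genes counted in each. Cd3d, Cd3e and Cd3g were at 0 on that day 0, and Cd3e, Cd3g and Cd8a on that day 3. Cd3g was at 0 in all 8 groups, so these sums do not show that T cells were present. The part of other cells in the results was not tested. Among 10 tested haemoglobin clearance genes, 1 rose and 3 fell by bone marrow-derived day 3 (all genes 11.9% and 6.61%; median -0.45). The gene that rose was Hmox1, which degrades haem, from 404 to 1625 CPM, and Cd163, a haemoglobin scavenger receptor, fell from 89.7 to 12.7 CPM. Cd163 was at 0 in the iPSC-derived day 0 libraries, at least 828-fold below bone marrow-derived day 0. Among 6 tested formyl peptide receptor relatives and ligands, 0 rose and 1 fell by bone marrow-derived day 12 (all genes 14.7% and 9.08%). By iPSC-derived day 12, 2 rose and 1 fell (all genes 14% and 10.7%). Anxa1, an Fpr2 ligand, fell in both sources by day 12, by 1.23 ± 0.23 in bone marrow-derived and by 2.03 ± 0.23 in iPSC-derived cells.

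**Figure D4:**
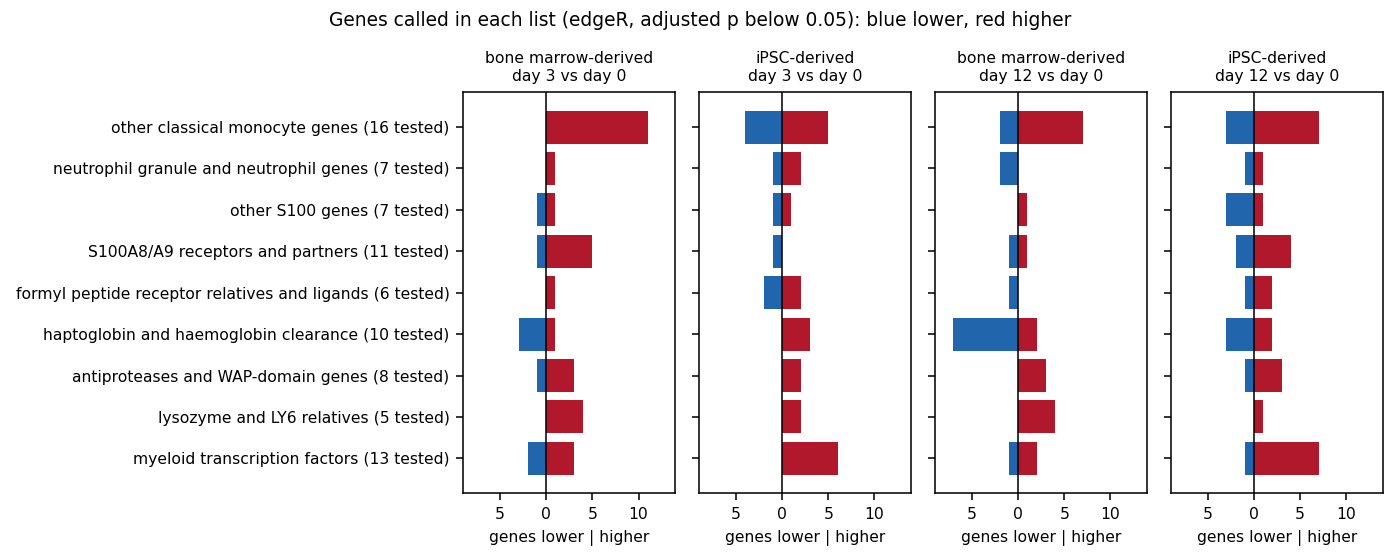
Bars count genes called higher (red, right) or lower (blue, left) in each list for 4 comparisons with day 0 (edgeR, adjusted p below 0.05). Of the other classical monocyte genes, 11 were higher on bone marrow-derived day 3, against 5 higher and 4 lower on iPSC-derived day 3.

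**Figure D5:**
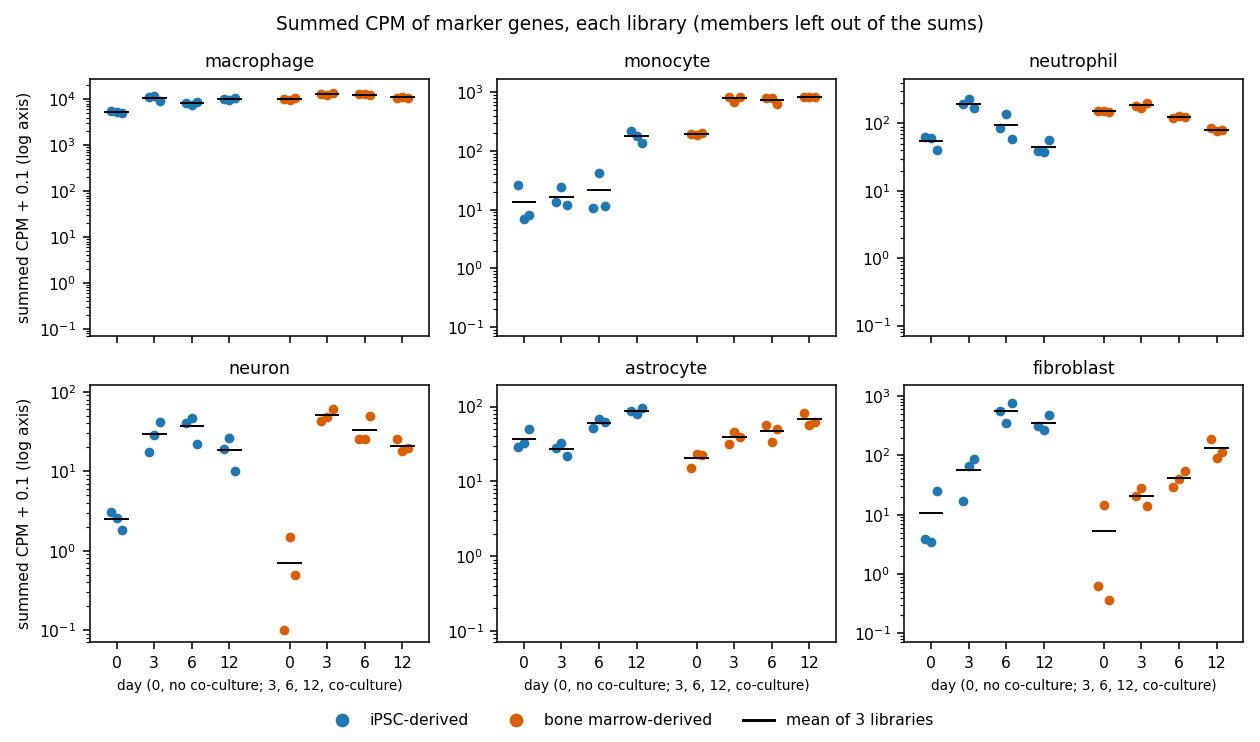
Points are summed CPM of marker genes plus 0.1 (log axis) for each library by day, with bars at the mean of 3 libraries; the genes described were left out of the sums. Monocyte markers were 688 to 849 CPM on bone marrow-derived day 3 and 12.1 to 24.0 CPM on iPSC-derived day 3.

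By day 12, 14.7% of all genes were higher and 9.08% lower than on day 0 in bone marrow-derived cells, and 14% and 10.7% in iPSC-derived cells. The monocyte list held 7 higher and 2 lower genes in bone marrow-derived cells (median 1.14) and 7 higher and 3 lower in iPSC-derived cells (median 1.73; all genes 0.04 in both). Ms4a4c, a membrane protein of monocytes, rose by 3.81 ± 0.29 in bone marrow-derived cells and fell by 0.90 ± 0.30 in iPSC-derived cells. Fn1, fibronectin, rose in both, by 4.67 ± 0.93 and 5.14 ± 0.88, and Clec4e, a lectin that senses mycobacterial glycolipid, rose by 1.47 ± 0.39 and fell by 4.20 ± 0.46. Among 13 tested myeloid transcription factors, 7 rose and 1 fell by iPSC-derived day 12, while the 2 and 1 in bone marrow-derived cells were near the shares of all genes. Cebpa rose from 18.5 to 49.7 CPM in iPSC-derived cells, while Spi1, which encodes PU.1, stayed between 234 and 430 CPM in all 8 groups. Among 7 tested other S100 genes, 1 rose and 3 fell by iPSC-derived day 12. S100a16, named because it was the one that rose, was at least 12.8-fold higher (0 to 1.49 CPM), and S100a6, S100a10 and S100a11 fell from 26.8, 52.5 and 16.97 CPM to 1.53, 5.28 and 1.54 CPM. Of 11 tested S100A8/A9 receptors and partners, 4 rose and 2 fell by iPSC-derived day 12 (all genes 14% and 10.7%), and the receptor Tlr4 went from 73.3 to 153 CPM. Cst7, a cysteine protease inhibitor among 8 tested antiproteases (3 higher and 0 lower in bone marrow-derived cells, 3 and 1 in iPSC-derived cells), rose by 4.21 ± 0.34 in bone marrow-derived and by 1.79 ± 0.34 in iPSC-derived cells. Between the sources, 7 of the 16 monocyte genes were lower and 1 higher in iPSC-derived cells on day 0 (all genes 17.1% and 18.9%), 14 and 0 on day 3 (8.92% and 8.94%), 13 and 1 on day 6 (6.23% and 6.99%), and 8 and 0 on day 12 (4.74% and 5.03%).

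Per length, in TPM, the order on bone marrow-derived day 3 was Lyz2 (45398 ± 2673, SD, n = 3), Fpr1 (623 ± 20.8), Hp (278 ± 55.9), Fpr2 (109 ± 11.1), Slpi (64.2 ± 7.65), Ly6c2 (13.8 ± 1.77), Plac8 (6.77 ± 0.843) and S100a8 (3.17 ± 0.891). Over 24 libraries and 7857 genes, the pattern of Fpr1 was most like Cd38 (Pearson r = 0.951), that of Fpr2 like Itgam (0.931), Slpi like Mcemp1 (0.922), Lyz2 like Fam43a (0.911), Plac8 like Gstp1 (0.898), Hp like Hif1a (0.892) and Ly6c2 like F10 (0.848). These correlations run over libraries that share sources and days and describe these data only.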

How the data were processed

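The deposited values are raw counts for each gene. Per the file headers, the authors counted read pairs over GENCODE vM9 exons with featureCounts 1.5.0-p1 and no strand setting; the submitters' processing notes name STAR and mm10 (GRCm38), with no role given. Per the labels' protocols, libraries were SMART-seq v2. The column of exonic lengths in the deposited table was used for TPM. Symbols matched 47224 of 47643 IDs; the other 419 held 0.0635% of counts. There were 24 libraries in 8 groups of 3, and no 2 replicates agreed within sampling noise.

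Genes kept by filterByExpr (minimum count 10, total 15; 15000 genes) entered 1 edgeR 4.0.16 quasi-likelihood fit (R 4.3.3, TMM, robust) with 15 contrasts. Benjamini-Hochberg adjusted p below 0.05 was called. Of the 9 genes, 7 were tested, and Ly6c2 passed the filter only through its bone marrow-derived day 3 libraries. The scripts were tested on simulated data. The genes and lists were chosen with earlier results of these data known; all 9 genes are named throughout, and from other lists fixed genes or those of lowest adjusted p. The values of 1 further gene on the monocyte lists are not reported here. Count ratios carry exact 95% intervals, for counting error only. Alternatives were DESeq2 1.42.0, other scaling, no filter, fewer groups, a replicate block and each library left out.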

Additional observations from a re-analysis of the deposited data

Results flagged for a closer look

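The change from day 0 differed between the sources, by the edgeR interaction test, for several genes; these tests share the day 0 libraries. To day 3, the adjusted p was 4.6e-08 for Fpr1, 1.9e-05 for Fpr2, 2.6e-05 for Slpi, 0.0002 for Hp, 0.00065 for Lyz2 and 0.0067 for Plac8, which is 6 of 7 genes. The iPSC-derived change was the lower one for all of these except Lyz2. For Lyz2 it was higher by 3.06 ± 0.58 on the log2 scale (3.73 without iPSC-derived day 0 replicate 3). Plac8 was at -6.39 ± 1.66, and at -10.4 without bone marrow-derived day 0 replicate 3, which held all 5 counts of its group.

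To day 6, the adjusted p was 2.6e-07 for Fpr1, 0.00082 for Slpi, 0.004 for Fpr2, 0.012 for Hp and 0.035 for Lyz2 (5 of 7). Lyz2 alone had the higher change in iPSC-derived cells, 1.76 ± 0.57. Its call was lost when any of 10 of the 12 libraries was left out, with 1.51 as the lowest value, and it was 2.43 without iPSC-derived day 0 replicate 3. Hp was -4.44 ± 1.21. It became -5.92 without bone marrow-derived day 0 replicate 2 and -3.50, short of the threshold, without iPSC-derived day 0 replicate 2.

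To day 12, the adjusted p was 8.5e-05 for Fpr1, 0.00046 for Lyz2, 0.0021 for Slpi and 0.017 for Plac8 (4 of 7). Lyz2 was again higher in iPSC-derived cells, by 3.22 ± 0.58 (3.88 without iPSC-derived day 0 replicate 3), and the other 3 lower. Fpr1 rests on 2 counts in bone marrow-derived day 0, and Slpi on 0 in iPSC-derived day 12, so no fold is given for them. Plac8 rests on 5 counts in bone marrow-derived day 0, all in replicate 3. Its value was -5.63 ± 1.66, and -9.65 without that library, still called.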

How the results depend on the processing

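Of 1386 values (7 genes, 15 comparisons, every alternative), 1250 kept their direction and their side of the threshold, 53 lost a call, 54 gained one and 29 changed direction; 0 of those 29 were called in either fit. No DESeq2 adjusted p was missing. The causes were not tested. S100a8 and S100a9 had too few counts to be tested.

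With only the compared groups fitted, the calls became 1 (from 2) for iPSC-derived day 3 and for day 6 against day 0. They became 1 (from 3) for iPSC-derived day 12 against day 3, and 2 (from 1) for the sources on day 12. Bone marrow-derived days 3, 6 and 12 against day 0 became 7 (from 6), 4 (from 3) and 3 (from 2). The sources became 3 (from 4) on day 0 and 6 (from 5) on day 3, and the interaction to day 3 became 7 (from 6). DESeq2 gave 4 (from 3) on iPSC-derived day 12 and bone marrow-derived day 6, and 3 (from 2) on bone marrow-derived day 12. It gave 6 (from 5) for the sources on day 3, and 7 (from 6) and 6 (from 5) for the interaction to days 3 and 6. With no filter the calls became 5 (from 3) on iPSC-derived day 12, and 5 (from 3) and 4 (from 2) on bone marrow-derived days 6 and 12 against day 0. They became 2 (from 1) for the sources on day 12, as also with no scaling factors. No filter also gave 3 (from 2) for iPSC-derived days 3 and 6 against day 0, and 4 (from 3) for iPSC-derived day 12 against day 3. It gave 7 (from 6) on bone marrow-derived day 3, and 5 (from 4), 7 (from 5) and 5 (from 4) for the sources on days 0, 3 and 6. The interaction to days 3 and 12 became 7 (from 6) and 5 (from 4). With no scaling factors the sources on day 3 became 6 (from 5) and the interaction to day 3 became 7 (from 6).

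With the replicate block, calls between the sources on day 12 became 2 (from 1, adding Fpr1). Hp gained a call for iPSC-derived day 12 against day 3 (4 from 3) and for the interaction to day 12 (5 from 4). Plac8 between the sources on day 0 (3.50, adjusted p = 0.055; 3 from 4) and the Lyz2 interaction to day 6 (1.83, adjusted p = 0.056; 4 from 5) lost theirs. No other call changed with the block. After each gene's group mean was taken off, same-numbered libraries correlated at -0.0545 to 0.161. In 0 of 6 pairs of groups per source did all exceed 0.1. Between iPSC-derived days 3 and 12 they correlated at 0.098, 0.0472 and 0.161, against a mean of -0.0507 for other numbers. Whether shared numbers pair the iPSC-derived samples is therefore undecided.

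Leaving out 1 library gave 1 to 2 calls on iPSC-derived days 3 and 6 against day 0, 3 to 4 on day 12, and 2 to 4 for day 12 against day 3. It gave 5 to 6, 3 to 4 and 2 to 3 on bone marrow-derived days 3, 6 and 12 against day 0, and 3 in every case for day 12 against day 3. For the sources it gave 3 to 5 on day 0, 5 in every case on day 3, 3 in every case on day 6 and 0 to 1 on day 12. For the interaction it gave 6 to 7 to day 3, 3 to 6 to day 6 and 4 to 5 to day 12.

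Directions changed for uncalled log2 values. Ly6c2 in iPSC-derived cells ran from -3.82 to 2.65 (day 3 against day 0), -4.38 to 0 (day 6), -3.82 to 3.45 (day 12) and -2.65 to 3.46 (day 12 against day 3). In bone marrow-derived day 12 against day 0 it ran from -0.55 to 0.49, and was 0.0899 with no scaling factors. Its interaction ran from -3.63 to 0.74 (day 6) and -3.73 to 3.54 (day 12). On iPSC-derived day 6 against day 0, Hp ran from -1.30 to 0.22 and Fpr2 from -0.42 to 0.37. For iPSC-derived day 12 against day 3, Lyz2 ran from -0.57 to 0.41 and Plac8 from -0.76 to 0.17. Slpi on bone marrow-derived day 12 against day 0 ran from -0.75 to 0.93. Between the sources, Fpr2 on day 0 ran from -0.998 to 0.44 and Lyz2 on day 12 from -0.89 to 0.061.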
